A study of Mus musculus with 8 samples.

Results

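The comparison took 10 genes of the podocyte foot process and its cytoskeleton: Synpo, Actn4, Podxl, Ptpro, Myh9, Arhgdia, Trpc6, Plce1, Myo1e and Dag1. Members were the probes whose gene symbol in the deposited signal table equals one of these names. Rows were found for 7 of the 10 genes, with 11 probes among the 25697 probes of the table, and all 11 were among the 14967 probes tested. Synpo (synaptopodin), Arhgdia (a GDP-dissociation inhibitor of small GTPases) and Myo1e (a class I myosin) were not analysed here.

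Podocytes cover the outer side of the glomerular capillaries with interdigitating foot processes, each of which holds a contractile bundle of actin filaments. The shape of the processes depends on the charged coat of their apical surface, on actin crosslinkers and myosin motors, on calcium and small GTPase signals, and on receptors that hold the process to the glomerular basement membrane (GBM). Mutations of several of these genes cause inherited proteinuria, and flattening of the processes, called effacement, is a common picture of podocyte injury. CD151, the tetraspanin deleted in these mice, sits at the base of the processes beside a laminin-binding integrin.

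Glomeruli were isolated with magnetic beads from the kidneys of 3-week-old FVB/N males, 4 of them Cd151+/+ and 4 Cd151-/-, and the RNA of each mouse was hybridised to 1 Illumina MouseRef-8 v1.1 array. The deletion of Cd151 is homozygous and is not described as limited to podocytes, so it reaches the endothelium, the mesangium and the tubules too, and the sources name no other allele or treatment for either genotype. The comparison asks whether the expression of foot process and cytoskeleton genes differs at an early stage of the glomerular disease of this strain. Values are normalised log2 signals, the brightness of a probe's beads after background correction and quantile normalisation, and every difference is Cd151-/- minus Cd151+/+ on that scale. Levels of different probes cannot be set against each other on this scale, so each gene was compared only with itself.

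The reporting Cd151 probe read 14.37 ± 0.24 (SD, n = 4) in Cd151+/+ and was not detected in any Cd151-/- mouse, a level at least 523-fold lower. Between 11291 and 12359 probes were detected per array. The arrays fell into 2 sets by background signal, a lower one of 58.5 to 69.2 (Cd151+/+ mice 1 and 2, Cd151-/- mice 3 and 4) and a higher one of 122 to 132 (Cd151+/+ mice 3 and 4, Cd151-/- mice 1 and 2). Each set held 2 mice of each genotype, so differences were also computed within each set and with the set as a block in the fit. Of 10 podocyte markers on the table, 8 were detected on at least 1 array, 6 of them on all 8 arrays, and 2 on none. Clic5, which encodes a foot process protein that binds ezrin, read 8.63 ± 0.14 in Cd151+/+ and 8.41 ± 0.40 in Cd151-/- mice (SD, n = 4). Wt1, the podocyte transcription factor, read 10.21 ± 0.89 and 10.15 ± 1.35 and was higher on each array of higher background than on any of lower background. Umod, made in the loop of Henle, was detected on all 8 arrays (14.31 ± 0.51 and 13.77 ± 0.42).

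The promoter windows of RefSeq (assembly GRCm38.p6, 250 bases before to 50 bases after the transcription start) covered 6 of the 7 measured genes, with 7 windows. Podxl had no entry. Those of Actn4, Ptpro and Plce1 are shown because these genes ranked the 8 mice alike, and that of Trpc6 because it was the only measured gene with a difference above 0. Capitals mark matches, on either strand, to the GC box (GGGCGG), the EGR and WT1 consensus (GCGGGGGCG), the MCAT element (CATTCC) or the CArG box, the binding motif of serum response factor.
Actn4, chr7:28962283-28962582, minus strand: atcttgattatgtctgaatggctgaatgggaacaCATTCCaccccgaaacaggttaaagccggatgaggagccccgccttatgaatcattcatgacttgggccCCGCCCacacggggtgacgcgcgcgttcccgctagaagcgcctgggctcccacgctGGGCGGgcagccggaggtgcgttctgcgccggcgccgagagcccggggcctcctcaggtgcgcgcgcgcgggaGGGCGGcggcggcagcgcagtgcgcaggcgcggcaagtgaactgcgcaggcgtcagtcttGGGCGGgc
Ptpro, chr6:137252049-137252348, plus strand: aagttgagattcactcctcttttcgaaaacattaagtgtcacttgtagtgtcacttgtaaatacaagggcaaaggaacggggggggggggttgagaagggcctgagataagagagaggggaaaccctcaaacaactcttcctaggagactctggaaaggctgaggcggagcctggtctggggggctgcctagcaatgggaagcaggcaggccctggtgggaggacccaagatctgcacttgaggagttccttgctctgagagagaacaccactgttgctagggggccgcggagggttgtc
Plce1, chr19:38523947-38524246, plus strand: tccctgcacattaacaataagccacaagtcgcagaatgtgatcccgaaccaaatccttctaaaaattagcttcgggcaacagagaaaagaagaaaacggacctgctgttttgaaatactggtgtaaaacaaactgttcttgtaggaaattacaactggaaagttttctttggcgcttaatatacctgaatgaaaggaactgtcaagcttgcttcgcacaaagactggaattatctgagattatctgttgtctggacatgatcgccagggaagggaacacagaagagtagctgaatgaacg
Trpc6, chr9:8543892-8544191, plus strand: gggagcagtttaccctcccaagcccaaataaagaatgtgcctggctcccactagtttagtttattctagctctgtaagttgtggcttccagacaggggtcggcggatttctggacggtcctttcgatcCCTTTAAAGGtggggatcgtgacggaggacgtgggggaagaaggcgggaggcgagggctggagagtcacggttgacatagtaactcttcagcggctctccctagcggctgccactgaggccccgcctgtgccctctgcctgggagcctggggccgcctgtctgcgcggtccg
Of these 4 windows only that of Actn4 held GC boxes, 4 of them, and it also held 1 MCAT element at position -216 relative to the start. The windows of Ptpro and Plce1 held none of the 4 motifs. The Trpc6 window held 1 CArG box. The Myh9 window (chr15:77842126-77842425) held 6 GC boxes, and the windows of Dag1 held 4 and 3 and each also 1 EGR and WT1 consensus, which shares letters with a GC box. Over all 32851 promoter windows, 35.7% held a GC box, 2.91% the EGR and WT1 consensus, 14.7% an MCAT element and 1.63% a CArG box. The GC content was 68% for Actn4, 54.7% for Ptpro, 41% for Plce1 and 60% for Trpc6, against a median of 52.7% over all windows. The windows of the 3 genes that ranked the mice alike had no searched motif in common. Most promoter windows lack each of these motifs, so this cannot tell whether the 3 genes share regulation, which was not tested.

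None of the 7 genes passed the adjusted threshold between the genotypes, and 1, Plce1, passed at an unadjusted p below 0.05 and was lower in Cd151-/- glomeruli. By limma with Benjamini-Hochberg adjustment over 14967 probes, 0 of the 11 probes passed at 0.05, against 0.0334% of all probes. At an unadjusted p below 0.05, 1 of the 11 probes was lower and 0 were higher, against 2.61% and 1.69% of all probes. With the array set as a block, 0 of the 11 probes passed after adjustment, 1 was lower and 0 were higher unadjusted, against 0.0535%, 6.08% and 5.21% of all probes. The reporting probes of 6 genes had a difference below 0 and 1 had a difference above 0, with a median of -0.31, where 50.9% of all probes tested lay below 0 and the median of all gene symbols was -0.0018. The 2 genotypes overlapped for each of the 11 probes, whereas 1.46% of all probes were lower and 0.855% higher in Cd151-/- mice with no overlap. In bulk glomerular RNA, fewer podocytes and less RNA per podocyte cannot be told apart. Several of the 7 genes, among them Actn4, Myh9 and Dag1, are also expressed by other cells of the glomerulus.

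**Figure D1:**
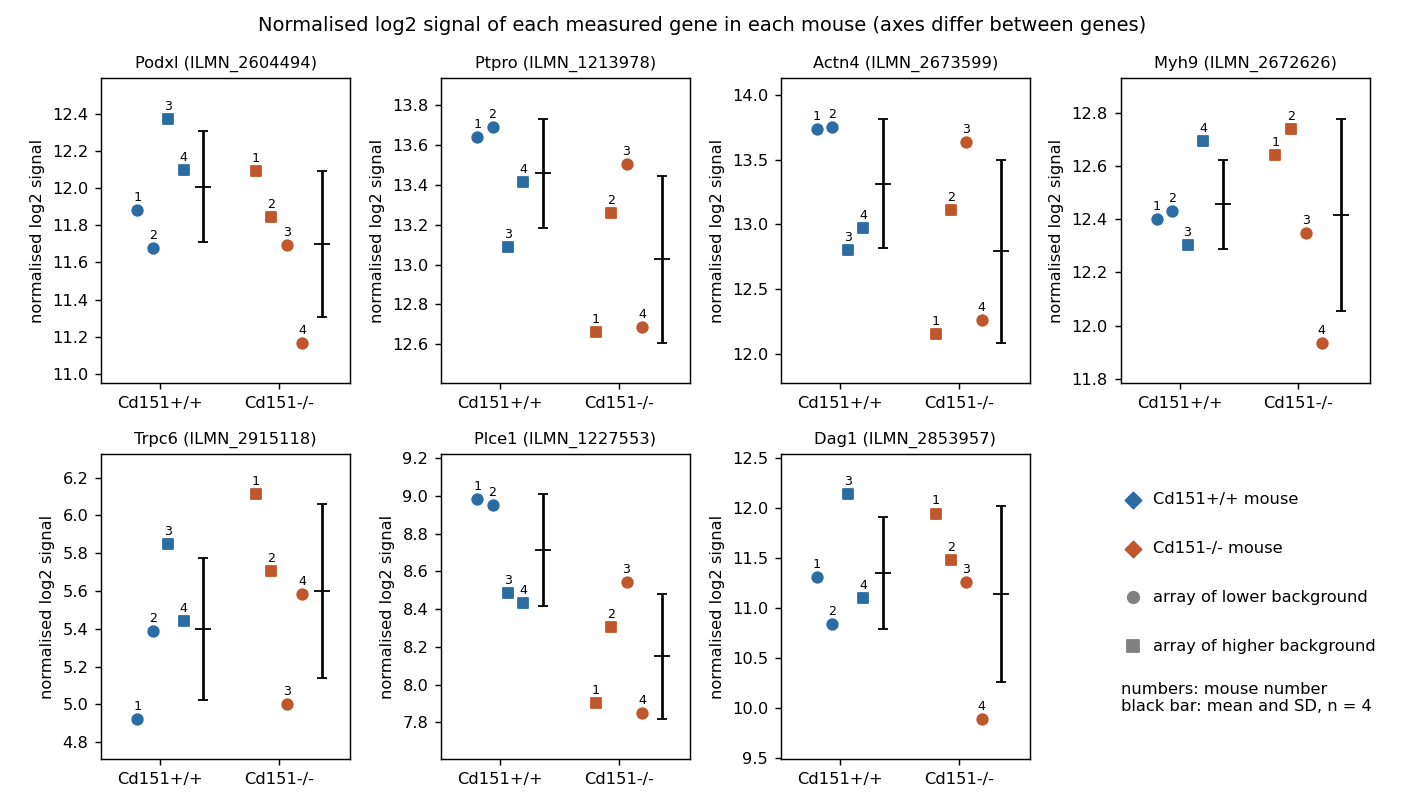
Normalised log2 signal of the reporting probe of each of the 7 measured genes in each mouse, Cd151+/+ in blue and Cd151-/- in orange, with the mean and SD of 4 mice as a black bar. Circles are arrays of lower and squares arrays of higher background. The genotypes overlap in every panel, and Plce1 has the difference farthest from 0, -0.56.

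Podxl (probe ILMN_2604494) encodes podocalyxin, the sialomucin whose negative charge keeps neighbouring foot processes apart. Its signal was 11.88, 11.68, 12.37 and 12.10 in Cd151+/+ mice 1 to 4 and 12.09, 11.84, 11.69 and 11.17 in Cd151-/- mice 1 to 4. Cd151-/- mouse 4 was the lowest and Cd151+/+ mouse 3 the highest, and the other 6 mice interleaved. The means were 12.01 ± 0.30 and 11.70 ± 0.39 (SD, n = 4). The difference of -0.31 (SE 0.26, 95% interval -0.87 to 0.26) did not pass in limma (p = 0.255, adjusted p = 0.918), and the two-sided exact permutation p was 0.257. The interval runs from a 1.83-fold fall to a 1.19-fold rise. The difference was -0.35 within the set of lower background and -0.27 within the set of higher background, and with the set as a block limma gave a p of 0.116 (adjusted p = 0.507).

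Ptpro (probe ILMN_1213978) encodes the receptor tyrosine phosphatase known as GLEPP1, which lies on the apical membrane of the foot process. The reporting probe read 13.64, 13.69, 13.09 and 13.41 in Cd151+/+ mice 1 to 4 and 12.66, 13.26, 13.50 and 12.68 in Cd151-/- mice 1 to 4. Cd151-/- mice 1 and 4 lay below all Cd151+/+ mice, while Cd151-/- mice 2 and 3 lay inside their range. The difference between the means, 13.46 ± 0.27 and 13.03 ± 0.42 (SD, n = 4), was -0.43 (SE 0.26, 95% interval -1.00 to 0.14; limma p = 0.124, adjusted p = 0.918; exact permutation p = 0.171). Within the lower and the higher background sets it was -0.57 and -0.29, and the block by set gave a limma p of 0.0868 (adjusted p = 0.474). A dimmer Ptpro probe, detected on 2 Cd151+/+ arrays and 1 Cd151-/- array, differed by -0.26 (SE 0.22, limma adjusted p = 0.918).

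Actn4 (probe ILMN_2673599) encodes the alpha-actinin that crosslinks the actin bundle of the foot process, and dominant mutations of the human gene cause focal segmental glomerulosclerosis. The reporting probe read 13.74, 13.75, 12.80 and 12.97 in Cd151+/+ mice 1 to 4 and 12.16, 13.11, 13.64 and 12.26 in Cd151-/- mice 1 to 4. The spread between mice of a genotype was wide: Cd151+/+ mice 1 and 2 and Cd151-/- mouse 3 formed a high group of 13.64 to 13.75, and Cd151-/- mice 1 and 4 were the lowest. The pooled SD within genotypes was 0.61, at the 83.5th percentile of all tested probes (median 0.38).

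The Actn4 means were 13.32 ± 0.50 and 12.79 ± 0.71 (SD, n = 4), a difference of -0.52 (SE 0.37, 95% interval -1.34 to 0.29). It did not pass in limma (p = 0.182, adjusted p = 0.918), and the exact permutation p was 0.343. The interval still allows a fall of up to 2.53-fold. Within the set of lower background the difference was -0.80 and within the set of higher background -0.25, with a limma p of 0.131 for the block by set (adjusted p = 0.521). The 2 other Actn4 probes gave differences of similar size, -0.54 (SE 0.39) and -0.53 (SE 0.37), each with a limma adjusted p of 0.918. They did not rank the mice alike, however: the brighter one kept the order of the reporting probe apart from its first 2 mice, whereas the dimmer one was highest in Cd151+/+ mouse 3 and read 7.02 in Cd151-/- mouse 3, its second lowest value.

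Myh9 (probe ILMN_2672626) encodes the heavy chain of non-muscle myosin IIA, a motor of the contractile bundle. It read 12.40, 12.43, 12.30 and 12.69 in Cd151+/+ mice 1 to 4 and 12.64, 12.74, 12.35 and 11.94 in Cd151-/- mice 1 to 4. Apart from the low value of Cd151-/- mouse 4, the mice of both genotypes lay between 12.30 and 12.74. The means were 12.46 ± 0.17 and 12.42 ± 0.36 (SD, n = 4), and the difference of -0.04 (SE 0.23, 95% interval -0.55 to 0.47; limma p = 0.868, adjusted p = 0.984; exact permutation p = 0.771) was smaller than the spread within either genotype. It was -0.27 within the lower and 0.19 within the higher background set, and it was 0.12 without Cd151-/- mouse 4, 0.04 without Cd151+/+ mouse 4 and 0.016 after cubic spline normalisation, so that no direction held.

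Trpc6 (probe ILMN_2915118) encodes a cation channel that carries calcium into the podocyte, and gain-of-function mutations of the human gene cause glomerulosclerosis. Its probe was near background and reached detection on 2 Cd151+/+ arrays and on 3 Cd151-/- arrays. The signal was 4.92, 5.39, 5.85 and 5.44 in Cd151+/+ mice 1 to 4 and 6.11, 5.71, 5.00 and 5.58 in Cd151-/- mice 1 to 4. Mice of the 2 genotypes were intermixed along the range. The means were 5.40 ± 0.38 and 5.60 ± 0.46 (SD, n = 4), and the difference of 0.20 (SE 0.28, 95% interval -0.42 to 0.83) did not pass in limma (p = 0.493, adjusted p = 0.920; exact permutation p = 0.486). Within the lower and the higher background sets it was 0.14 and 0.27 (limma adjusted p = 0.683 with the block). Without background correction the Trpc6 difference was 0.08. At a signal this near background a change in Trpc6 could be missed, and the interval sets no limit on the size that could be missed.

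Plce1 (probe ILMN_1227553) encodes phospholipase C epsilon, which splits membrane phosphoinositide into the second messengers that release calcium and activate protein kinase C, and its loss in humans causes early nephrotic syndrome. It read 8.98, 8.95, 8.49 and 8.43 in Cd151+/+ mice 1 to 4 and 7.90, 8.31, 8.54 and 7.85 in Cd151-/- mice 1 to 4. Only Cd151-/- mouse 3 reached the Cd151+/+ range, where it lay above Cd151+/+ mice 3 and 4. The means were 8.71 ± 0.29 and 8.15 ± 0.33 (SD, n = 4), a difference of -0.56 (SE 0.24, 95% interval -1.10 to -0.03), or 0.678 of the Cd151+/+ level (95% interval 0.467 to 0.982).

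The Plce1 difference had a limma p of 0.0414 but an adjusted p of 0.918, and the two-sided exact permutation p was 0.0857, where 4 mice against 4 cannot give less than 0.0286. It was -0.77 within the lower and -0.35 within the higher background set. With the set as a block the SE fell from 0.24 to 0.20 and the limma p was 0.0201, with an adjusted p of 0.387. Without Cd151+/+ mouse 1 the Plce1 difference was -0.47 with an unadjusted limma p of 0.109, and without Cd151+/+ mouse 2 it was -0.48 with a p of 0.106. Leaving out Cd151-/- mouse 1 gave -0.48 and a p of 0.110, and leaving out Cd151-/- mouse 4 gave -0.46 and a p of 0.101.

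Dag1 (probe ILMN_2853957) encodes dystroglycan, the laminin and agrin receptor that couples the sole of the foot process to the GBM. The reporting probe read 11.31, 10.84, 12.14 and 11.10 in Cd151+/+ mice 1 to 4 and 11.95, 11.48, 11.25 and 9.89 in Cd151-/- mice 1 to 4. Cd151-/- mouse 4 was far below the other 7 mice, and Cd151+/+ mouse 3 was the highest. The means were 11.35 ± 0.56 and 11.14 ± 0.88 (SD, n = 4), and the difference was -0.20 (SE 0.43, 95% interval -1.15 to 0.74; limma p = 0.641, adjusted p = 0.940; exact permutation p = 0.743). It was -0.50 within the lower and 0.09 within the higher background set, 0.21 without Cd151-/- mouse 4 and 0.06 without Cd151+/+ mouse 3, so its sign rested on single mice.

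A dimmer Dag1 probe varied more between mice. It read 6.68, 6.82, 9.15 and 7.53 in Cd151+/+ mice 1 to 4 and 9.13, 9.08, 6.24 and 5.63 in Cd151-/- mice 1 to 4. Its mean was 6.34 in the set of lower background and 8.72 in the set of higher background, 2.38 apart, with Cd151+/+ mouse 4, at 7.53, below the other 3 of the higher set, while the genotypes differed by -0.03 (SE 0.82, limma adjusted p = 0.996). Its pooled SD within genotypes, 1.53, was at the 99.9th percentile of all tested probes. With the set as a block its SE was 0.40.

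**Figure D2:**
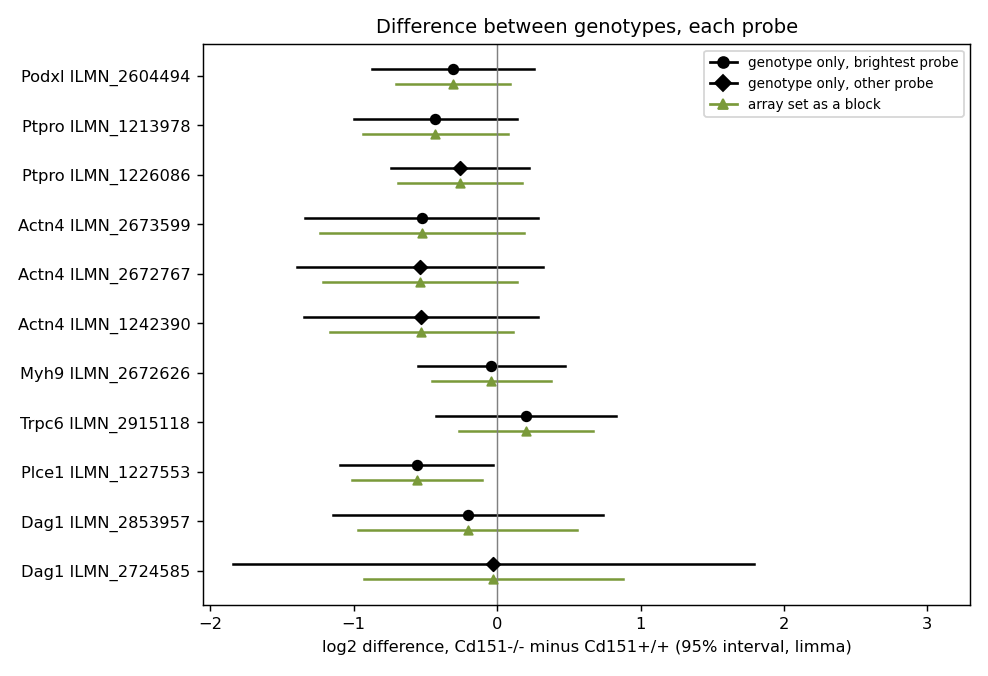
Log2 difference, Cd151-/- minus Cd151+/+, of each of the 11 probes with its 95% interval from limma, fitted with genotype only (black; circles are reporting probes and diamonds other probes) and with the array set as a block (green). Plce1 alone has an interval that does not cross 0, and the interval of the dimmer Dag1 probe runs from -1.84 to 1.79 with genotype only.

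The 7 genes did not vary together from mouse to mouse. Both brighter Actn4 probes, Ptpro and Plce1 shared their 3 highest mice (Cd151+/+ mice 1 and 2, Cd151-/- mouse 3) and their 2 lowest (Cd151-/- mice 1 and 4). Podxl and Dag1 were instead highest in Cd151+/+ mouse 3, and Trpc6 was lowest in Cd151+/+ mouse 1. The 3 mice highest for Actn4, Ptpro and Plce1 all had arrays of lower background, as had Cd151-/- mouse 4. The mean of the higher minus that of the lower background set was -0.59 and -0.78 for the brighter Actn4 probes. It was -0.27 for Ptpro and -0.30 for Plce1, but 0.74 for the dimmest Actn4 probe. For Podxl, Myh9, Trpc6 and Dag1 it was 0.50, 0.32, 0.55 and 0.84. The part of the array set in these orders was not tested. Cd151-/- mouse 4 was the lowest mouse for 4 of the 7 genes, Cd151-/- mouse 1 for 2 and Cd151+/+ mouse 1 for 1. The mean over the 7 reporting probes was 10.98, 10.96, 11.00 and 10.88 in Cd151+/+ mice 1 to 4 and 10.79, 10.92, 10.85 and 10.20 in Cd151-/- mice 1 to 4, so Cd151-/- mouse 4 stood lowest and the other 7 mice lay within 10.79 to 11.00. Without Cd151-/- mouse 4, 4 of the 7 genes had a difference below 0, with a median of -0.13.

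Marker genes of other cells moved along with some of these values. The mean log2 signal of 10 tested endothelial markers was 11.21, 11.38, 10.89 and 10.86 in Cd151+/+ mice 1 to 4 and 10.43, 10.83, 11.29 and 10.45 in Cd151-/- mice 1 to 4. Its 3 highest and 2 lowest mice were those of Actn4, Ptpro and Plce1, the 3 highest all on arrays of lower background. Pecam1, Tie1, Ehd3, Cdh5 and Plvap had these 3 highest mice too. So had Kdr, but its probe was near background, detected on 2 Cd151+/+ arrays and on no Cd151-/- array. Flt1 and Emcn were instead highest in Cd151-/- mouse 2 and Tek in Cd151+/+ mouse 4, and Eng had Cd151-/- mouse 2 among its 3 highest. The mean over 9 proximal tubule markers was highest in Cd151-/- mouse 4, at 11.25, where the mean over 8 podocyte markers was lowest, at 9.38. The proximal tubule mean of the other mice ranged from 9.15 to 10.64 and the podocyte mean from 9.75 to 10.31.

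As summed signal, the proximal tubule markers spanned 21480 to 63237 in the Cd151+/+ mice, against 43128 to 79574 in the Cd151-/- mice. In the same order, the podocyte markers spanned 93367 to 100355 and 83721 to 100725, and the endothelial markers 41519 to 53697 and 27423 to 52926. All 9 tested proximal tubule markers had a difference above 0, of which 1, Kap (1.38, limma adjusted p = 0.918), passed at an unadjusted p below 0.05. Their median was 0.61, and it was 1.30 within the lower and 0.10 within the higher background set. Of the 10 endothelial markers, 9 had a difference below 0 and none passed, with a median of -0.39 (-0.46 and -0.35 within the sets). Of the mesangial and smooth muscle markers 6 of 8 lay below 0 (median -0.28). Among these 8, 1 was lower, Pdgfrb (-0.74), and 1 higher, Acta2 (0.71), at an unadjusted p below 0.05 in limma. The exact permutation p was 0.114 for Pdgfrb and 0.0571 for Acta2. Of the loop and distal tubule markers 5 of 6 lay below 0 (median -0.35), and of the leukocyte markers 4 of 6 (median -0.17). Of the erythroid markers 5 of 5 lay below 0 (median -0.69), with 3 lower at an unadjusted p below 0.05. No marker gene passed after adjustment. The part of these other cells in the values of the 7 genes was not tested.

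**Figure D3:**
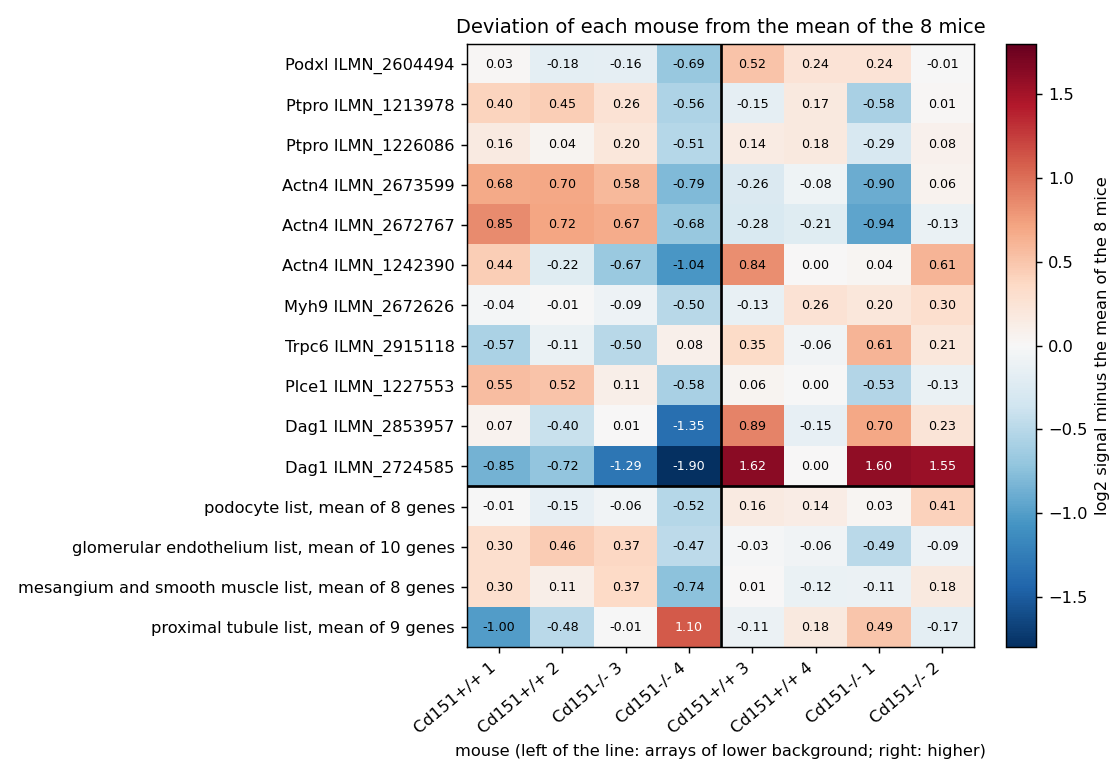
Deviation of each mouse from the mean of the 8 mice, in log2 signal, for the 11 probes and, below the line, for the mean of 4 marker lists. Mice left of the vertical line have arrays of lower background and those to the right of higher background. The brighter Actn4 probes, Ptpro and Plce1 share a pattern with the mean of the endothelial markers, though not with each of these markers. The dimmer Dag1 probe is lower on the 4 arrays of lower background than on the 4 of higher background.

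The podocyte markers were used as a yardstick for podocyte RNA. Of 8 tested markers, 6 had a difference below 0 and 2 above, none passed at an unadjusted p below 0.05, and their mean signal differed by -0.07. Relative to that mean, the differences were -0.24 for Podxl, -0.36 for Ptpro, -0.46 for Actn4, 0.03 for Myh9, 0.27 for Trpc6, -0.49 for Plce1 and -0.14 for Dag1. Each value is thus the gene's own difference moved up by the same amount, which turned the sign of Myh9 only, and no test was made of these values.

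Genes that work with the measured ones were read from lists of partners. Of the apical partners, such as the ezrin family and its scaffold proteins, 8 of 9 were tested, with 5 differences below 0 and 3 above, and none passed at an unadjusted p below 0.05 in limma (median -0.13). The differences farthest from 0 were those of Slc9a3r2, a scaffold that ties podocalyxin to ezrin (-0.60, SE 0.29, limma p of 0.0638), and Podxl2, endoglycan of the podocalyxin family (-0.39, SE 0.29, limma p of 0.206). Of the actin and myosin partners, 26 of 32 were tested, with 11 below 0, 15 above and none that passed (median 0.04). Anln, which encodes the actin-binding protein anillin, differed by 1.26 (SE 0.62, limma p of 0.0684), with a wide spread in both genotypes (8.13 ± 0.83 and 9.39 ± 1.37, SD, n = 4). Pdlim2, which encodes a partner of alpha-actinin, differed by -0.52 (SE 0.28, limma p of 0.0838).

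Of the small GTPase signalling genes, 13 of 19 were tested, with 10 below 0 and 3 above. By limma at an unadjusted p below 0.05, 2 were lower and 1 was higher. Cdc42ep4, an effector of Cdc42, was lower by -1.31 (SE 0.47, limma p = 0.0176, exact permutation p = 0.0857; -1.24 and -1.37 within the lower and the higher background sets). It read 12.33, 12.47, 11.27 and 11.51 in Cd151+/+ mice 1 to 4 and 9.82, 10.21, 12.06 and 10.26 in Cd151-/- mice 1 to 4, so Cd151-/- mouse 3 alone lay in the Cd151+/+ range. Rac1, a GTPase that drives the branched actin of membrane ruffles, was lower by -0.74 (SE 0.28, limma p = 0.0238, exact permutation p = 0.0857; -0.76 and -0.71 within the sets), again with Cd151-/- mouse 3, at 10.81, inside the Cd151+/+ range of 10.58 to 11.00. Iqgap1, a scaffold that binds Rac and Cdc42, was higher by 0.78 (SE 0.34, limma p = 0.0410, exact permutation p = 0.0857; 0.34 and 1.23 within the sets). With the set as a block, the limma p was 0.00300 for Cdc42ep4, 0.0135 for Rac1 and 0.00671 for Iqgap1, and the adjusted p was 0.349, 0.376 and 0.356.

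Of the calcium and phospholipase C genes, 19 of 23 were tested, with 13 below 0 and 6 above, of which 1 passed at an unadjusted p below 0.05 and was lower (median -0.10). This was Itpr3, a receptor for inositol trisphosphate that releases calcium from the endoplasmic reticulum. It read 10.09, 10.15, 9.34 and 9.35 in Cd151+/+ mice 1 to 4 and 8.41, 9.02, 9.44 and 8.33 in Cd151-/- mice 1 to 4, a difference of -0.94 (SE 0.31, limma p = 0.0124, exact permutation p = 0.0857; -1.24 and -0.63 within the sets). With the set as a block the limma p of Itpr3 was 0.00598 (adjusted p = 0.356). As for Plce1, which acts upstream of this receptor, Cd151-/- mouse 3 lay above Cd151+/+ mice 3 and 4. Cd151-/- mice 1 and 4 were the lowest, again as for Plce1. The brighter Actn4 probes, Ptpro and the mean of the endothelial markers also placed these mice so. The order was thus not particular to calcium signalling genes, and shared regulation was not tested. Nfatc4, a calcineurin-dependent transcription factor, differed by -0.63 (SE 0.34, limma p of 0.0908).

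Of the genes of the dystroglycan complex and its glycosylation, 14 of 20 were tested, with 8 below 0 and 6 above, and 1 was lower at an unadjusted p below 0.05 (median -0.08). Dtna, which encodes a dystrobrevin, differed by -0.58 (SE 0.25, limma p = 0.0410, exact permutation p = 0.0571; -0.99 and -0.16 within the sets) and reached detection on 3 Cd151+/+ and 2 Cd151-/- arrays. Sgca, a sarcoglycan, differed by -0.62 (SE 0.38, limma p of 0.131). In all 5 lists together, none of the genes passed after adjustment over all probes, and the 5 that passed unadjusted had an adjusted limma p of 0.918 each.

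**Figure D4:**
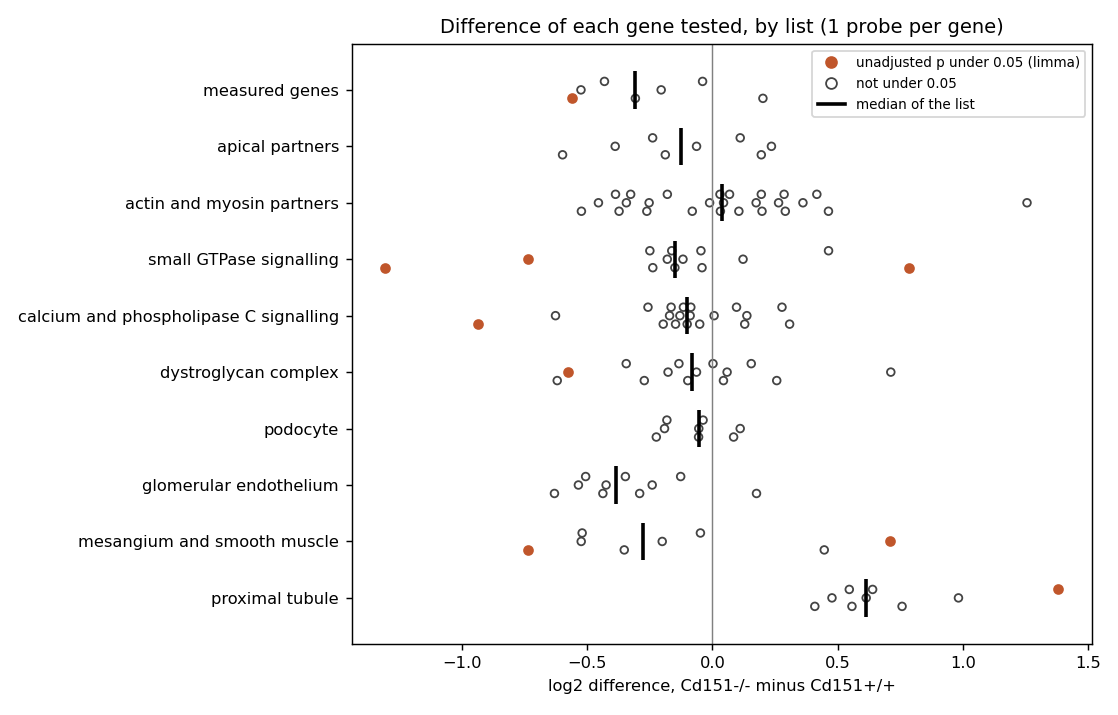
Log2 difference, Cd151-/- minus Cd151+/+, of each measured gene and each tested gene of the partner lists and of some marker lists, 1 probe per gene. The median of each list is a black bar, and genes with an unadjusted limma p below 0.05 are filled. The marker lists drawn are podocyte, endothelium, mesangium and smooth muscle, and proximal tubule. The loop and distal tubule, leukocyte and erythroid markers are not drawn. The measured foot process genes have a median of -0.31, the podocyte markers of -0.05, the endothelial markers of -0.39 and the proximal tubule markers of 0.61.

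Among 9486 probes outside the 7 genes that were detected on all 8 arrays, the probes closest to the mean of the 7 genes were those of 4933428G20Rik (Pearson r = 0.989, Spearman correlation 0.929), Gata2, a transcription factor of endothelial and blood cells (r = 0.988, Spearman correlation 0.929), and Efnb1, an ephrin ligand (r = 0.974, Spearman correlation 0.833), over 8 arrays. These are descriptions without a test, since the 8 points come from 2 array sets and Cd151-/- mouse 4 lies well below the other 7 in the mean.

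Other normalisations, filters and designs moved the values of some genes more than others. The Plce1 difference was below 0 in all 20 alternatives, from -0.78 to -0.45, and had an unadjusted limma p below 0.05 in 13 of them, with no adjusted p under 0.0885. Actn4 and Ptpro were also below 0 in all 20, from -0.98 to -0.31 and from -0.66 to -0.31, and each passed unadjusted in 2. Trpc6 was above 0 in all 19 alternatives that tested it, from 0.03 to 0.57, and passed unadjusted in 1. Podxl was below 0 in 19 of 20, Dag1 in 17 and Myh9 in 16.

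**Figure D5:**
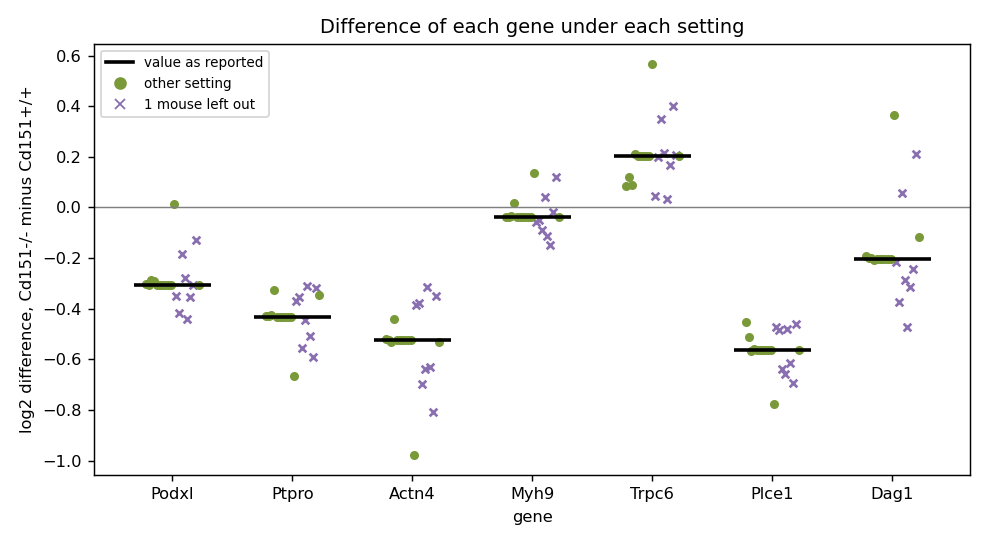
Log2 difference, Cd151-/- minus Cd151+/+, of each measured gene as reported (black bar), under other processing settings (green points) and with 1 mouse left out (purple crosses). Ptpro, Actn4 and Plce1 stay below 0 and Trpc6 above 0 throughout, while Podxl, Myh9 and Dag1 each cross 0 at least once.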

How the data were processed

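Per the study's methods, biotin-labelled cRNA of each mouse was hybridised to a MouseRef-8 v1.1 BeadChip, scanned, and checked by the authors in GenomeStudio. The signal intensity values used here were deposited by the authors without background correction or normalisation, although their own lists came from cubic spline values. The detection p-value deposited by the authors beside each intensity gives the share of negative-control probes at least as bright, in steps of 1 over 798.

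The members and lists were chosen with earlier results of these data known. In R 4.3.3 with limma 3.58.1, background was inferred from the detection p-values, normexp was applied with an offset of 16, and arrays were quantile-normalised. Probes with a detection p-value of at most 0.05 on at least 1 array (14967) were fitted with lmFit and eBayes and Benjamini-Hochberg adjusted. Single probes were also tested by exact permutation over 70 relabelings. Of several probes of a gene, the one with the highest mean is reported, the others beside it. From each partner list the genes with an unadjusted p below 0.05 are named and, where fewer than 2, also the 2 farthest from 0. Array sets were split by background signal. Scripts were tested on simulated data. Each mouse is 1 sample. The number of arrays and a median detected signal of 3.02 to 4.56 times background limit the precision. The array names no genome build for its probes, so no probe positions are given. Some list genes that entered the counts and medians are not reported here by name.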

Additional observations from a re-analysis of the deposited data

How the results depend on the processing

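None of the 7 genes passed after adjustment in any of 21 alternatives, and none of the partner or marker genes in 19. The count of probes that passed over all genes was 5 as reported, 8 with the array set as a block, 2 with all probes of a gene averaged and 91 by SAM at an FDR below 0.2 (6 higher, 85 lower, none of the 11 probes). It was 4 to 6 with 1 mouse left out. At an unadjusted p below 0.05, 253 probes were higher and 390 lower, against 780 and 910 with the array set as a block, 2336 and 2480 with array weights, 431 and 663 without the detection filter and 139 and 250 with 75th percentile scaling, and between 131 and 625 higher and 209 and 783 lower with 1 mouse left out. The partner genes that passed unadjusted numbered 5 as reported, 29 with array weights and 2 to 9 with 1 mouse left out, namely 2 when Cd151+/+ mouse 1, Cd151+/+ mouse 2 or mouse 1 of the Cd151-/- group was dropped and 9 when mouse 3 of the latter was. Of the 7 genes, 1 was lower unadjusted as reported, 3 with array weights or without Cd151-/- mouse 3, and 0 with 75th percentile scaling, a trended and robust variance, or when mouse 1 or 2 of the Cd151+/+ group, or mouse 1 or 4 of the Cd151-/- group, was dropped. With array weights the differences of Podxl, Myh9 and Dag1 turned to 0.015, 0.14 and 0.36, and after cubic spline normalisation that of Myh9 to 0.016. With 1 mouse left out, Myh9 ranged from -0.15 to 0.12 and Dag1 from -0.47 to 0.21. The cause was not tested. The median over the 7 genes ranged from -0.37 to 0.01, and relative to the podocyte markers from -0.27 to -0.14. Trpc6 was not tested where detection on all 4 arrays of a genotype was required.

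The labels do not describe mice of the same number as pairs. Their deviations from the genotype means correlated at -0.58, -0.40, -0.53 and -0.01 for numbers 1 to 4. Each such couple joined an array of lower background with an array of higher background, so these values cannot tell whether mice were paired. A block by mouse number likewise set arrays of different background against each other. With the mouse number as a replicate block, 4 probes passed after adjustment, 205 were higher and 215 lower unadjusted, and none of the 7 genes passed, Plce1 at -0.56 with an unadjusted limma p of 0.0793.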
